A study of Mus musculus with 10 samples.

Results

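Binding sites of the transcription factor HEB were described at 6 mouse genes that act on the cytoskeleton or on cell guidance: Sema5a, Nav1, Afap1l2, Pxn, Rnd3 and Syne3. They were 6 of 21887 protein-coding genes in the annotation, and were selected on the deposited summit positions and scores, because earlier results on the same lists had a site inside or near them. The counts and ranks that follow are therefore a description of the genes chosen, without a test. For each gene, every deposited peak summit inside the gene or within 100000 bp of it was taken. This gave 6 of the 1489 summits recorded after knockdown of Id4 and 4 of the 560 summits recorded with the non-targeting siRNA.

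The cells were Comma-Dβ, an established mouse mammary epithelial line, at passage 28. In one group Id4 was targeted with an siRNA pool at 20 nM (siID4), in the other a non-targeting pool was given at the same dose (siNT), and cells were harvested 48 h later. Each group had 3 chromatin immunoprecipitation libraries made with an antibody against HEB. The 4 input libraries, made without antibody, served both groups, and no siRNA dose is listed for them. The siID4 pool is a siGENOME product and the siNT pool an ON-TARGETplus product, so the pools belong to different product lines as well as having different targets. The authors deposited 1 list of summits per siRNA, with the base at the top of each peak, the name of the peak and its score. No values per library were used, so no value below has an error between replicates, the depth of the libraries is unknown, and a summit present in 1 list and absent from the other is not evidence of a change in binding. The score was read from the layout as −log10 of a q value. It depends on the depth behind its own list, and ranks are therefore given within a list, with rank 1 as the highest score. The lists hold no expression values, so neither the loss of Id4 nor the activity of the 6 genes could be checked.

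HEB, encoded by Tcf12, is an E-protein: it binds DNA as a dimer through a basic helix-loop-helix domain at E-boxes, words of the form CANNTG. ID proteins such as ID4 have the helix-loop-helix part without the basic region, so that an E-protein paired with one cannot bind DNA. Semaphorins, small GTPases and the adaptors of actin filaments, microtubules and focal adhesions together set how cells attach, take shape and move. In mammary epithelium these systems operate in branching growth and in the contractile basal cells.

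All 3 genes with a site in both lists, Sema5a, Nav1 and Afap1l2, are given here by the 250 bases before the start site that RefSeq lists for them (GRCm38.p6, the assembly behind mm10), because distances to the summits are counted from these starts. The windows are chr15:32244563-32244812 on the plus strand for Sema5a, chr1:135585356-135585605 on the minus strand for Nav1 and chr19:57008576-57008825 on the minus strand for Afap1l2. Letters run 5′ to 3′, and capitals mark an E-box word.
Sema5a: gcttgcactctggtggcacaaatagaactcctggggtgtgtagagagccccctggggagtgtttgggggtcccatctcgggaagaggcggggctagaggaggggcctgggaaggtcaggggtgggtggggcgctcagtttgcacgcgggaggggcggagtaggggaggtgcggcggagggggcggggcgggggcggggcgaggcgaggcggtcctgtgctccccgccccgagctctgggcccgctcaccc
Nav1: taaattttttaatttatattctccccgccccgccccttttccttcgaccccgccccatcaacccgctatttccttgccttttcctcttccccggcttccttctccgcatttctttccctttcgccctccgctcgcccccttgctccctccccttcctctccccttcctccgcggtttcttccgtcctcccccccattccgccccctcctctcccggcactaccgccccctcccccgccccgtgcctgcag
Afap1l2: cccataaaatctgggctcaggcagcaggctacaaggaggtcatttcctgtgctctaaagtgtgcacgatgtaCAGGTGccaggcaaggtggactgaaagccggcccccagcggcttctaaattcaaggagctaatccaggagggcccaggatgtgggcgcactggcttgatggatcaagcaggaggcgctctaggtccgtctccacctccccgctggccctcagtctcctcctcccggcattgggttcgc
The Sema5a and Nav1 windows held no CANNTG word, and the Afap1l2 window held 1, CAGGTG, whose first base lies at -178 from the start. Of the other members, Rnd3 and Syne3 matched the promoter table, for 5 of 6 in all. The Rnd3 window held CATCTG at -231 and the Syne3 window CATTTG at -168. Of all 32851 promoter windows of this length, 66.2% held at least 1 CANNTG word, a form that reads the same on both strands. CAGGTG or its reverse complement CACCTG stood in 17.2% of them and CAGCTG in 13.0%. None of these words overlapped another in the windows of the 5 matched genes. No summit of either list fell in these windows (0 summits), and the sequence under the summits was not analysed here.

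Summits lay inside or within 100000 bp of 5 of the 6 genes in the siID4 list and of 4 in the siNT list. The same rule took 10.1% of all protein-coding genes in the siID4 list, 5.16% in the siNT list and 3.94% in both. Because the genes were chosen for having a summit, nothing is read from the difference to this background. Of the 10 summits, 9 lay inside the gene and 1, at Rnd3, outside it. A summit fell inside 1.96% of protein-coding genes in the siID4 list and 0.713% in the siNT list. Long genes hold more of them: among genes of at least 50000 bp the shares were 5.40% and 2.08%, and among shorter genes 0.950% and 0.313%. The 5 genes with a summit inside ranged from 64018 bp for Pxn to 451529 bp for Sema5a, and Sema5a was longer than 98.7% of protein-coding genes. For all 10 summits the gene named was also the nearest protein-coding gene. The annotation gives gene bodies without exons, so exon and intron could not be told apart.

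**Figure D1:**
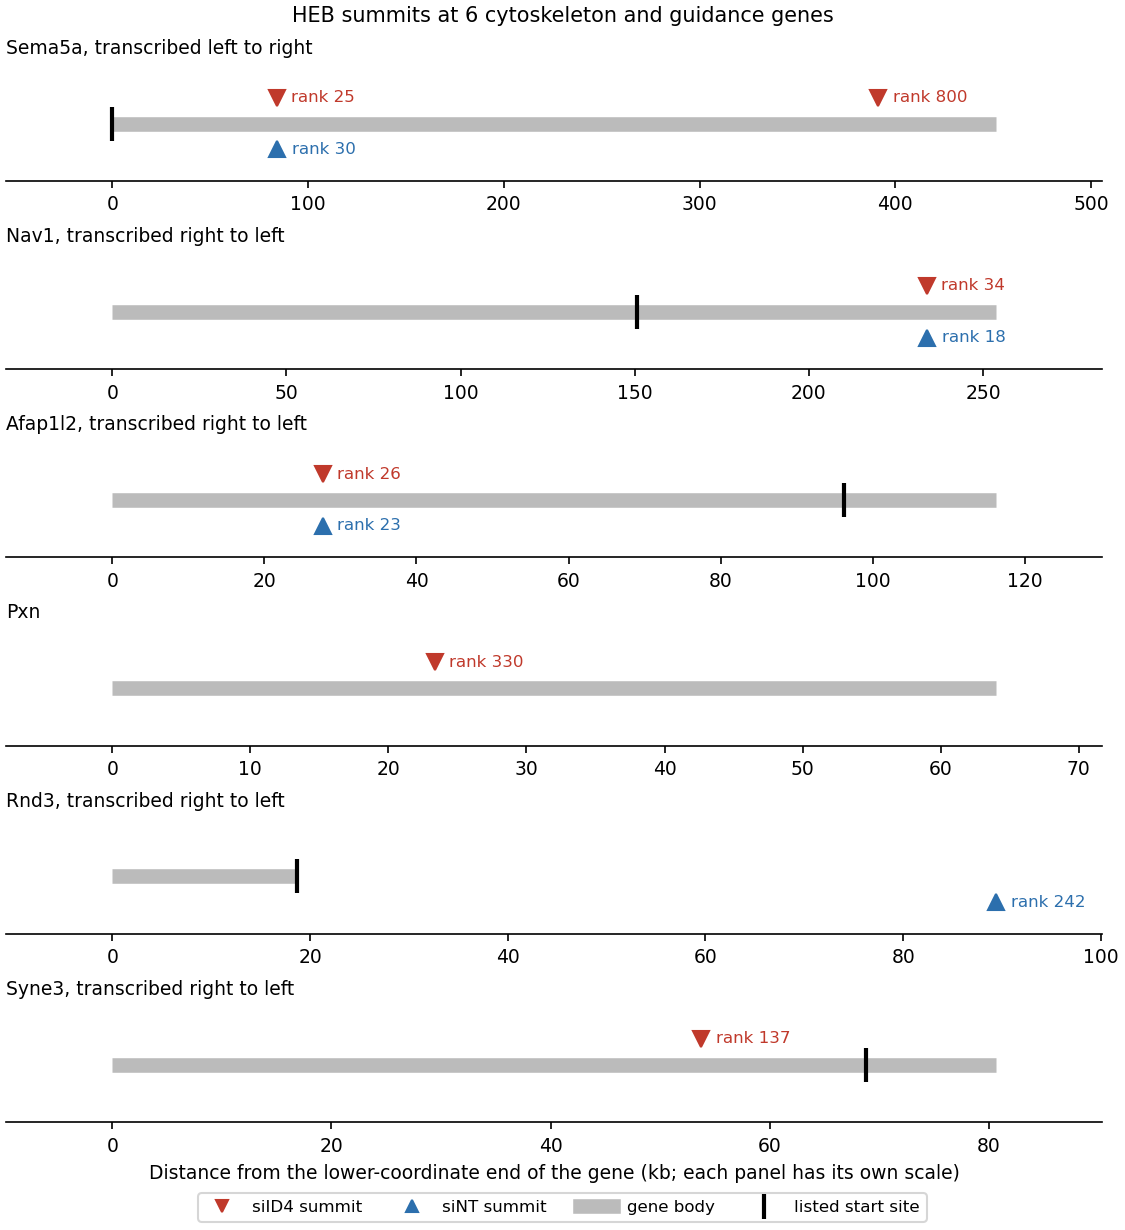
Position of every summit at the 6 genes, in kb from the lower-coordinate end of each gene body (grey), with siID4 summits above and siNT summits below the gene, and the rank in the list beside each. In Sema5a, Nav1 and Afap1l2 a marker of each list stands at the same place, and Sema5a has a further siID4 marker (rank 800). Pxn and Syne3 carry an siID4 marker alone and Rnd3 an siNT marker alone, outside the gene.

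Sema5a encodes a transmembrane semaphorin, a guidance cue that signals through plexin receptors. Its gene spans chr15:32244813-32696341. The siID4 list held a summit at position 32328900 with a score of 67.9, which was rank 25 of 1489. The siNT list held one at 32328917 with a score of 48.1, rank 30 of 560. These summits lay 17 bp apart, about 84 kb into the gene (84087 bp and 84104 bp downstream of the listed start, or 18.6% of its length). The siID4 list had a further summit at 32636128, 391315 bp downstream of the start, with a score of 3.93. It ranked 800 and lay below the list's median score of 4.31, and no siNT summit lay within 307211 bp of it. Sema5a thus carried a pair near the top of both lists and a weak second summit in the siID4 list.

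Nav1 encodes neuron navigator 1, a protein that follows the growing ends of microtubules and acts in neuronal migration. The gene lies at chr1:135434580-135688350 on the minus strand. Its siID4 summit stood at 135668470 (score 49.2, rank 34) and its siNT summit at 135668490 (score 75.9, rank 18), 20 bp apart. Among the members Nav1 ranked highest in the siNT list, while in the siID4 list it came after Sema5a and Afap1l2. The pair lay 83115 bp and 83135 bp upstream of the start that RefSeq lists for the promoter table. It was still inside the gene body, 19880 bp and 19860 bp from the outer 5′ end, since the annotated gene extends beyond that start. Neither list held another summit inside Nav1 or within 100000 bp of it.

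Afap1l2 encodes an adaptor of the actin filament-associated protein family, also known as XB130, which binds Src family kinases. The gene lies at chr19:56912354-57028589 on the minus strand. Its summits stood at 56940042 in the siID4 list (score 67.4, rank 26) and at 56940034 in the siNT list (score 65.8, rank 23), 8 bp apart. They were 68533 bp and 68541 bp downstream of the listed start. Counted from the outer 5′ end of the gene, they lay at 76.2% of its length, in the 3′ part. No other summit of the siNT list lay within 2 Mb, and 1 other summit of the siID4 list did.

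The 3 pairs stood out in rank among sites of the same kind, which is a restatement of how the genes were found. A pair of summits within 200 bp of each other lay inside 77 protein-coding genes, which is 0.352% of all and 0.971% of those of at least 50000 bp. Ordered by siID4 score, Sema5a was 3rd, Afap1l2 4th and Nav1 6th of these 77 genes. Ordered by siNT score, Nav1 was 2nd, Afap1l2 3rd and Sema5a 5th. Many of the highest ranks in both lists belong to unplaced scaffolds. Counted on assembled chromosomes alone, the ranks of Sema5a, Afap1l2 and Nav1 were 13, 14 and 21 of 1394 in the siID4 list and 17, 11 and 9 of 483 in the siNT list.

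**Figure D2:**
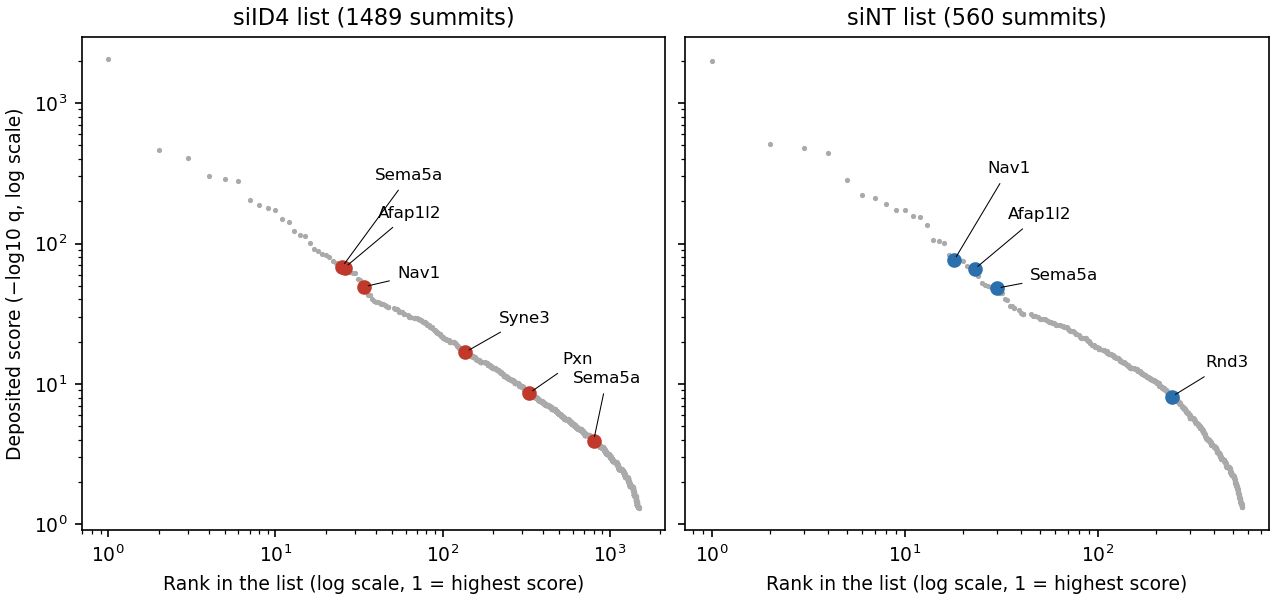
Deposited score against rank for every summit (grey, both axes logarithmic), with the summits of the 6 genes in colour, for the siID4 list on the left and the siNT list on the right. Sema5a, Nav1 and Afap1l2 lie between ranks 18 and 34 in both lists, and Syne3, Pxn, Rnd3 and the second Sema5a summit lie between ranks 137 and 800.

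The closeness of the paired positions was like that of shared sites in general. Over all 290 shared summits the median gap between the lists was 13 bp, with an interquartile range of 3 to 33.8 bp, and 61.0% were at most 20 bp apart. The gaps of 8, 17 and 20 bp at Afap1l2, Sema5a and Nav1 fall within that range. The siNT position was higher than the siID4 position at Sema5a and Nav1 and lower at Afap1l2, so the offsets did not point one way. Of the member summits, 3 of 6 in the siID4 list and 3 of 4 in the siNT list had a partner, beside 19.5% of all siID4 and 51.8% of all siNT summits. Summits of high rank mostly have a partner in either list: among the 50 highest, 46 siID4 summits (92%) and 48 siNT summits (96%) did.

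**Figure D3:**
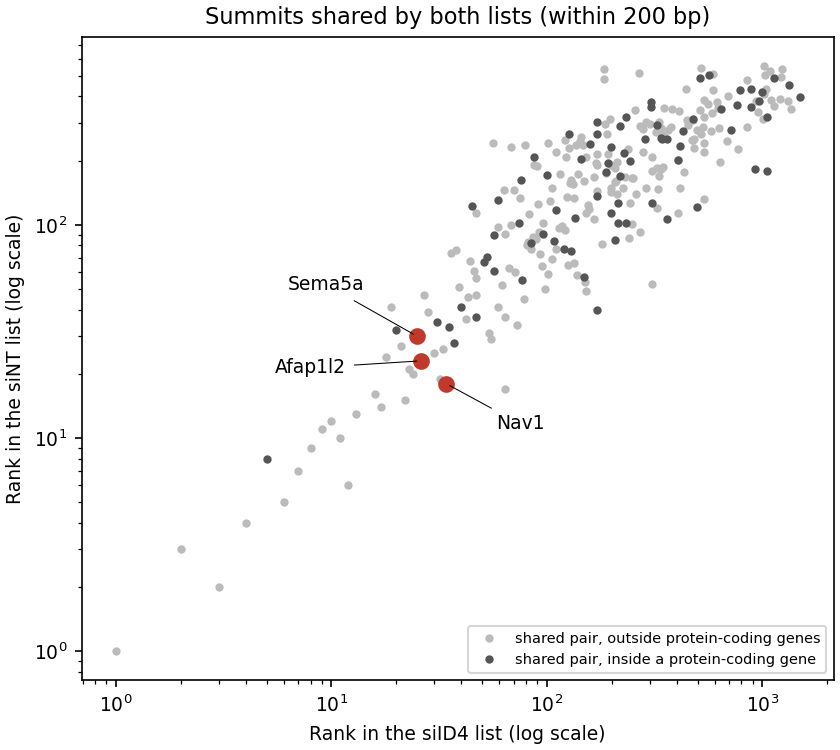
Rank in the siNT list against rank in the siID4 list for the 290 shared pairs (both axes logarithmic; dark points lie inside a protein-coding gene). The pairs at Sema5a, Afap1l2 and Nav1 (red) lie at ranks 25, 26 and 34 on the horizontal axis and 30, 23 and 18 on the vertical axis, in the sparse upper end of both lists.

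The genes with the most similar pair of ranks were found by the distance between percentiles in the 2 lists, over genes with a shared pair inside. For Sema5a they were Cbfa2t3, a transcriptional corepressor gene (ranks 20 and 32 in siID4 and siNT; 0.490 percentile points away), and Asap1, which encodes a GTPase-activating protein of Arf proteins that acts at focal adhesions (ranks 35 and 33; 0.859 points). Nav1 and Afap1l2 were each other's nearest (1.04 points). The next for both was Arid3a, a gene of a DNA-binding protein (ranks 37 and 28), at 1.80 points from Nav1 and 1.16 points from Afap1l2. The measure rests on 2 lists alone and ranks a small set of genes.

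The other 3 genes had a site in 1 list. Pxn encodes paxillin, a scaffold of focal adhesions that links integrins to kinases and the actin cytoskeleton. Its gene lies at chr5:115491970-115555987, and the siID4 list held a summit at 115515312 with a score of 8.62, rank 330 of 1489. This position is 23342 bp from the lower end of the gene and also lies inside Gm13840, a long non-coding RNA gene that overlaps Pxn. The nearest siNT summit was 1.42 Mb away. Of the 50 siID4 summits nearest in rank, 19 had an siNT partner (38%), so the absence of one at this rank is common in the list.

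Syne3 encodes nesprin-3, a protein of the outer nuclear membrane that ties the nucleus to intermediate filaments through plectin. Its gene lies at chr12:104929933-105010587 on the minus strand. The siID4 summit at 104983661 had a score of 16.9, rank 137 of 1489, and stood 15016 bp downstream of the listed start. That makes it the summit closest to a listed start among the 9 summits of the matched genes. Counted from the outer 5′ end of the gene it lay at 26926 bp, farther than the Nav1 pair at 19880 bp and 19860 bp. The nearest siNT summit on the chromosome was 10.6 Mb away. Of the 50 siID4 summits nearest in rank, 35 had an siNT partner (70%), so most at this rank had one. Why this summit had none was not tested.

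Rnd3 encodes a small GTPase that stays bound to GTP and opposes RhoA and ROCK, which drive actin stress fibres. The gene is short, 18673 bp at chr2:51130439-51149111 on the minus strand, and holds no summit in either list. An siNT summit at 51219836 (score 8.13, rank 242 of 560) lay 70725 bp upstream of its start. A pseudogene, Gm13500, and a long non-coding RNA gene, Gm13497, were closer, at 12095 bp and 21995 bp, and Rnd3 was the only protein-coding gene within 100000 bp. The nearest siID4 summit was 755936 bp away. Of the 50 siNT summits nearest in rank, 31 had an siID4 partner (62%), so here too most had one, and the absence was not tested.

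Beyond the limit of 100000 bp, the nearest further summits were siID4 summits 183249 bp from Pxn and 277558 bp from Sema5a, so none lay close to the limit. The Rnd3 summit was the farthest inside it. Few other summits surrounded most of the sites. Within 2 Mb, a summit on an assembled chromosome had a median of 7 others of its own list in siID4 (interquartile range 2 to 34) and 2 in siNT (1 to 6). In the siID4 list there were 12 others around either Sema5a summit, 7 around Pxn, 5 around Nav1, 2 around Syne3 and 1 around Afap1l2. In the siNT list there were 2 around Sema5a and Nav1 and 0 around Afap1l2 and Rnd3. All were at or under the median of their list except the Sema5a summits of the siID4 list.

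Other genes of the same systems were counted from 8 lists of 193 genes. Leaving out the 6 members, 20 of 187 genes (10.7%) had an siID4 summit inside or within 100000 bp, beside 10.1% of all protein-coding genes. For siNT it was 12 of 187 (6.42%) beside 5.16%, and 5 genes (2.67%) had one in both lists beside 3.94%. These shares are near those of all genes. The counts of single gene lists given below rest on few genes and are to be read beside the same 10.1% and 5.16%. The genes with a summit inside included Plxna4 and, named after its values were seen, Epha1 in the siID4 list, and Ntn1 and Afap1 in the siNT list. In the siID4 list 3 of 39 links, and in the siNT list 4 of 12, had the list gene as the nearest protein-coding gene. Most of these links therefore passed over a nearer gene.

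Among the guidance genes, 1 of 19 other semaphorins was linked in each list: Sema4c in siID4, with 2 summits tied at rank 800, and Sema3c in siNT (rank 439). Of 11 plexins and neuropilins, the receptors of semaphorins, Plxna4 contained an siID4 summit of rank 1137, and Plxna1 had an siNT summit 15951 bp away (rank 368). Of 41 other guidance ligands and receptors, 3 were linked in each list. Ntn1, the gene of the guidance cue netrin-1, contained an siNT summit at chr11:68220959 (score 9.14, rank 220). The netrin gene Ntn3 was linked in both lists, through a shared pair 58011 bp away (ranks 51 and 67) that lies inside Abca17. Ephb4, an ephrin receptor gene, had an siID4 summit 75537 bp away (rank 448). Epha1, another ephrin receptor gene, contained an siID4 summit of rank 647, which was also the summit linked to the focal adhesion gene Zyx.

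Of 24 microtubule-associated genes, Mapre1, which encodes the plus-end protein EB1, had an siID4 summit 53205 bp away (rank 493), and Dst one at rank 1137. In siNT 0 of 24 were linked, beside 5.16% of all protein-coding genes. Of 23 actin adaptor and nucleator genes, 3 were linked in each list. Afap1, the founding member of the family of Afap1l2, contained an siNT summit (score 5.32, rank 320) and had an siID4 summit 9687 bp from it (score 2.01, rank 1299), 119015 bp apart, so these were not a shared site. The gene of the actin-severing protein cofilin, Cfl1, had a shared pair 78500 bp away, 1269 bp from Ap5b1 (ranks 495 and 280).

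Of 31 focal adhesion genes besides Pxn, 6 were linked in siID4 (19.4%) and 2 in siNT (6.45%). Over all protein-coding genes the shares were 10.1% and 5.16%, and the siID4 list is the longer, with 1489 summits against 560. All 6 siID4 links were outside the gene, and the nearest protein-coding gene was another one for each. Lims1 owed its link to 5 siID4 summits and 1 siNT summit at least 89414 bp away, most of them inside Duxf3, whose family has near-identical copies. Tns2 had an siID4 summit 92958 bp away that lay next to Krt8 (rank 220), and Bcar1 an siNT summit 18146 bp away (rank 416). Of 26 small GTPases and regulators besides Rnd3, Rac3 was linked to 15 siID4 summits and 1 siNT summit, none shared, in the crowded distal part of chromosome 11. Rhoq had an siID4 summit 83167 bp away (rank 1097). Of 12 nuclear envelope linkers besides Syne3, Sun2 and Tor1a were linked in siID4, with ranks of 1088 and 1327, and Tmem43 in siNT (rank 425). These were 16.7% and 8.33% of the 12 genes, beside the same 10.1% and 5.16% of all genes.

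Every summit linked to these genes ranked lower than the pairs at Sema5a, Nav1 and Afap1l2, which ranks had helped to choose. The best rank among them was 51 in siID4 and 67 in siNT. Of the listed genes that are not members, 2 had an siID4 summit of rank 100 or better (Lims1 and Ntn3) and 1 an siNT summit of that rank (Ntn3). None of these summits lay inside the gene it was linked to. The lists do not hold every cytoskeletal gene, and genes outside them are not in this count.

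**Figure D4:**
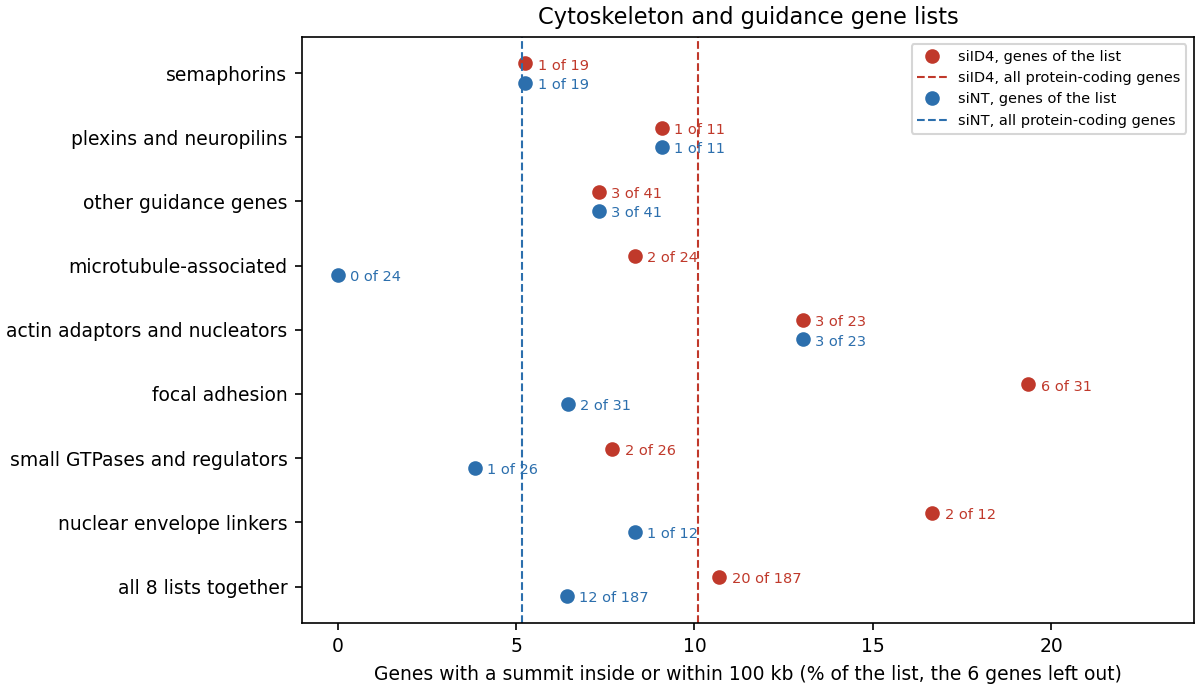
Share of genes in each list, without the 6 members, that had a summit inside or within 100 kb, for siID4 (red) and siNT (blue), with the counts beside each point and the share of all protein-coding genes as dashed lines. Over all 8 lists the points (10.7% and 6.42%) stand close to the lines at 10.1% and 5.16%.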

How the data were processed

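HEB chromatin immunoprecipitation followed by sequencing was carried out on 3 siNT and 3 siID4 samples with 4 inputs. The authors deposited 1 summit list per siRNA, with a score that was read from its layout as −log10 of a q value; its minimum was 1.32 in siNT and 1.31 in siID4, just above 1.30, which is −log10 of 0.05. Positions refer to mm10, and SAMtools is among the tools named, per the submitters' processing notes. For the aligner, the caller of peaks, filters and any pooling of libraries, the entry is the same: not given in the sources used here.

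Positions are 1-based. Summits were linked to gene bodies of the RefSeq table of GRCm38.p6 within 100000 bp, and counted as shared at a distance of at most 200 bp between lists. Percentiles are the share of a list with a lower score. Start sites and promoters came from the RefSeq promoter table, which matched 153 of the 193 listed genes; all 193 matched a protein-coding symbol. The linking was tested on simulated positions. No test was made, since each group is 1 list. The members and gene lists were chosen with earlier results of these data known. The text names every summit of the 6 genes, list genes linked in both summit lists, the 2 best-ranked genes per gene list and summit list, and genes of similar ranks. A result that falls under this rule is not reported here. Other distances, score limits and merging were tried. Python 3.11.15 with pandas 2.3.3, numpy 2.4.6 and matplotlib 3.10.9 was used.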

Additional observations from a re-analysis of the deposited data

How the results depend on the processing

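The counts for the 6 genes, of summits, of genes with a summit and of shared summits, stayed within 1.5 times under every alternative run for them: link distances of 50000 and 10000 bp, inside the gene, a score of at least 5 or above the median, merging within 500 bp, the nearest gene, and sharing within 50, 500 or 1000 bp. In siNT the 4 genes became 3 at every shorter link distance, because the only Rnd3 summit lies 70725 bp from the gene. The other 9 summits lie inside their genes, so the link distance could not change them. Gaps at the shared summits were 8, 17 and 20 bp and the smallest other gap was 307211 bp, so the sharing distances could not act either. Each gene was already the nearest protein-coding gene. Only Sema5a had more than 1 summit in a list, far more than 500 bp apart. The nearest-gene and merging rules therefore had nothing to change, and these settings are no check of stability. Most of the wider counts moved by more than 1.5 times, since fewer positions or summits qualify. Of the 193 listed genes, with the 6 members included, 25 were linked in siID4 and 16 in siNT. The members were chosen for having a summit, so these counts are not to be set beside those of all genes. Linked genes of the lists became 16 and 8 within 50000 bp, 11 and 5 within 10000 bp, and 8 and 5 inside the gene. Without the members, 3 and 2 genes had a summit inside. At a score of at least 5 the counts with the members were 16 and 9, and above the median score 18 and 6. Protein-coding genes with a summit, 2202 and 1130, became 1423 and 695 within 50000 bp, 654 and 277 within 10000 bp, 428 and 156 inside the gene, and 1378 and 650 above the median score. At a score of at least 5 they became 1197 and 797. Of these wider counts, the 18 and the 797 stayed within 1.5 times. The planned search for E-box words around summits was not run, because no genome sequence was used. No paired analysis was possible because each siRNA has 1 list without columns for its replicates. Leaving out a replicate could not be done for the same reason.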

Other observations

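Further cytoskeletal genes that no list held were noticed, around these sites or elsewhere, after the values were seen, and no test was made of them. Csrp1, which encodes a LIM protein of actin filaments and smooth muscle, lay 51593 bp from the siID4 summit of the Nav1 pair. Ablim1, an actin-binding LIM protein gene, lay 92691 bp from the siID4 summit in Afap1l2. The siID4 summit linked to Parva (rank 413) stood inside Mical2, the gene of an enzyme that oxidises actin. The nearest siNT summit, 20560 bp away, also lay inside Mical2. It was part of a shared pair there, 70 bp apart (ranks 1048 in siID4 and 322 in siNT). Elsewhere, a shared pair lay inside each of Plec (ranks 96 in siID4 and 91 in siNT), Fhod3 (76 and 162) and Capzb (188 and 177). Pairs of lower rank lay inside Fmnl3 (960 and 381) and Cdc42ep4 (1137 and 488). These genes are examples and were not counted as a set.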
